A study of Mus musculus with 12 samples.

Results

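Transcript levels of 10 chromatin regulators were followed in germinal centre (GC) B cells and other B cells of lupus-prone mice. The genes were the Polycomb subunits Ezh2, Ezh1, Suz12 and Eed, the DNA methylation maintenance genes Dnmt1 and Uhrf1, the histone methyltransferase Kmt2d, the demethylase Kdm6a and the acetyltransferases Crebbp and Ep300. They were found by gene symbol, and all 10 were present among the 43613 named genes of the deposited tables and among the 14600 genes that passed the filter on low values. The 12 libraries formed 4 groups of 3: GC and non-GC B cells labelled B6.Sle1b.IFNaR1-/- (Ifnar1KO), and GC and non-GC B cells labelled B6.Sle1b (Sle1b). All mice were females of 6 months on the C57BL/6J background and carried the lupus susceptibility interval Sle1b. Per their label, the Ifnar1KO mice also lacked Ifnar1, a subunit of the receptor for type I interferons. GC cells were sorted from spleen as live B220+ GL7+ CD95+ cells and non-GC cells as live B220+ GL7- CD95- cells. They came from pools of splenocytes, and the number of animals per pool is not given in the sources used here. Because nothing in the labels says that replicates were separate animals, the p-values measure only the spread between these libraries, which may be technical. The comparisons address which transcripts differ between the sorted GC and non-GC B cells and which differ between libraries labelled Ifnar1KO and Sle1b.

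Polycomb repressive complex 2 (PRC2) methylates lysine 27 of histone H3 through Ezh2 or its paralogue Ezh1, and needs the core subunits Suz12 and Eed for activity. Ezh2 is the form typical of dividing cells and Ezh1 of resting ones, and Ezh2 is required for GC formation in mice. Dnmt1 copies DNA methylation to the new strand after replication, guided by Uhrf1, which reads hemimethylated DNA. Kmt2d and Kdm6a promote the active state of enhancers, Crebbp and its paralogue Ep300 acetylate histones there, and EZH2, KMT2D, CREBBP and EP300 are recurrently mutated in human lymphomas of GC origin.

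Replicate numbers 1, 2 and 3 are the batch numbers of the deposited tables, and batch 3 stood apart. Its 4 libraries had 6005 to 9504 of the tested genes above 0, against 10745 to 12807 in the 8 libraries of batches 1 and 2. In batch 3 the summed GC markers of the sorted GC cells did not exceed those of the non-GC cells. The summed level of 7 GC markers (Bcl6, S1pr2, Mybl1, Gcsam, Rgs13, Nuggc and Fas) was 12.7 and 9.9 FPKM in Ifnar1KO and Sle1b GC cells, against 19.9 and 16.3 FPKM in the non-GC cells. In batches 1 and 2 that sum was 195 to 696 FPKM in GC cells, against 51.2 to 85.8 FPKM in non-GC cells. The defining GC markers Rgs13 and Nuggc were listed at 0 in all 4 libraries of batch 3. Bcl6 and Fas made up most of its non-GC sums, at 4.21 and 15.6 FPKM in Ifnar1KO and 8.19 and 4.97 FPKM in Sle1b. Both were lower in its GC libraries, as were Mybl1 and Gcsam in Sle1b. Gcsam was higher in Ifnar1KO GC cells (1.5 against 0.133 FPKM), and S1pr2 in Sle1b GC cells (1.96 FPKM against a listed 0). The 6 pan-B markers summed to 22.7 and 19.9 FPKM in the GC libraries of batch 3, against 222 and 208 FPKM in its non-GC libraries, while 7 T cell markers summed to 27.4 and 73.7 FPKM, against 8.09 and 6.24 FPKM. Single genes made up most of the T cell sums: Cd3d stood at 19.6 FPKM in Ifnar1KO GC cells, and Cd4 at 32.5 FPKM and Lck at 32.8 FPKM in Sle1b GC cells, with Cd3g and Cd8a listed at 0 in both. The cytoskeletal gene Actb stood at 11.5 and 5.78 FPKM in those GC libraries, against 110 and 120 FPKM in the non-GC libraries. Results are therefore given for all 3 batches and for batches 1 and 2. Ifnar1, the targeted gene, had a level of 14, 15.4 and 0 FPKM in the libraries labelled Ifnar1KO GC, against 8.07, 9.89 and 6.8 FPKM in Sle1b GC cells. In libraries labelled Ifnar1KO non-GC it was 50.8, 69.1 and 2.58 FPKM, against 14.5, 36.1 and 3.45 FPKM in Sle1b non-GC cells. Ifnar1 transcript was thus higher in the libraries labelled knockout in batches 1 and 2. The value covers the whole locus, and the labels do not say which part was deleted.

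In batches 1 and 2, Ezh2 was higher and Ezh1 lower in GC cells than in non-GC cells of both genotypes. Ezh2 (chr6:47530274-47595341 in GRCm38) stood at 51.5, 47.7 and 5.44 FPKM in Ifnar1KO GC cells of batches 1, 2 and 3, against 11, 16 and 6.5 FPKM in Ifnar1KO non-GC cells. In Sle1b cells it stood at 78, 66.9 and 0 FPKM in GC cells, against 4.8, 7.6 and 0 FPKM in non-GC cells. The GC library was the higher one in all 4 pairs of batches 1 and 2, as it was for 7.27% of all tested genes. Batch 3 showed no such gap. A value of exactly 0 in these tables can be a failed estimate. The authors marked no Ezh2 entry as failed, but both values were 0 in Sle1b batch 3, so no fold is given there. Ezh1 (chr11:101191115-101226463) ran the other way, at 1.74, 3.8 and 15 FPKM in Ifnar1KO GC cells, against 15.9, 20.1 and 2.25 FPKM in Ifnar1KO non-GC cells. In Sle1b cells Ezh1 was 5.53, 3.52 and 5.89 FPKM in GC cells, against 14.9, 19.6 and 4.67 FPKM in non-GC cells. The GC libraries were the lower ones in batches 1 and 2 and the higher ones in batch 3. Here and below, a difference between bulk libraries cannot tell fewer cells of a type from less RNA per cell.

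**Figure D1:**
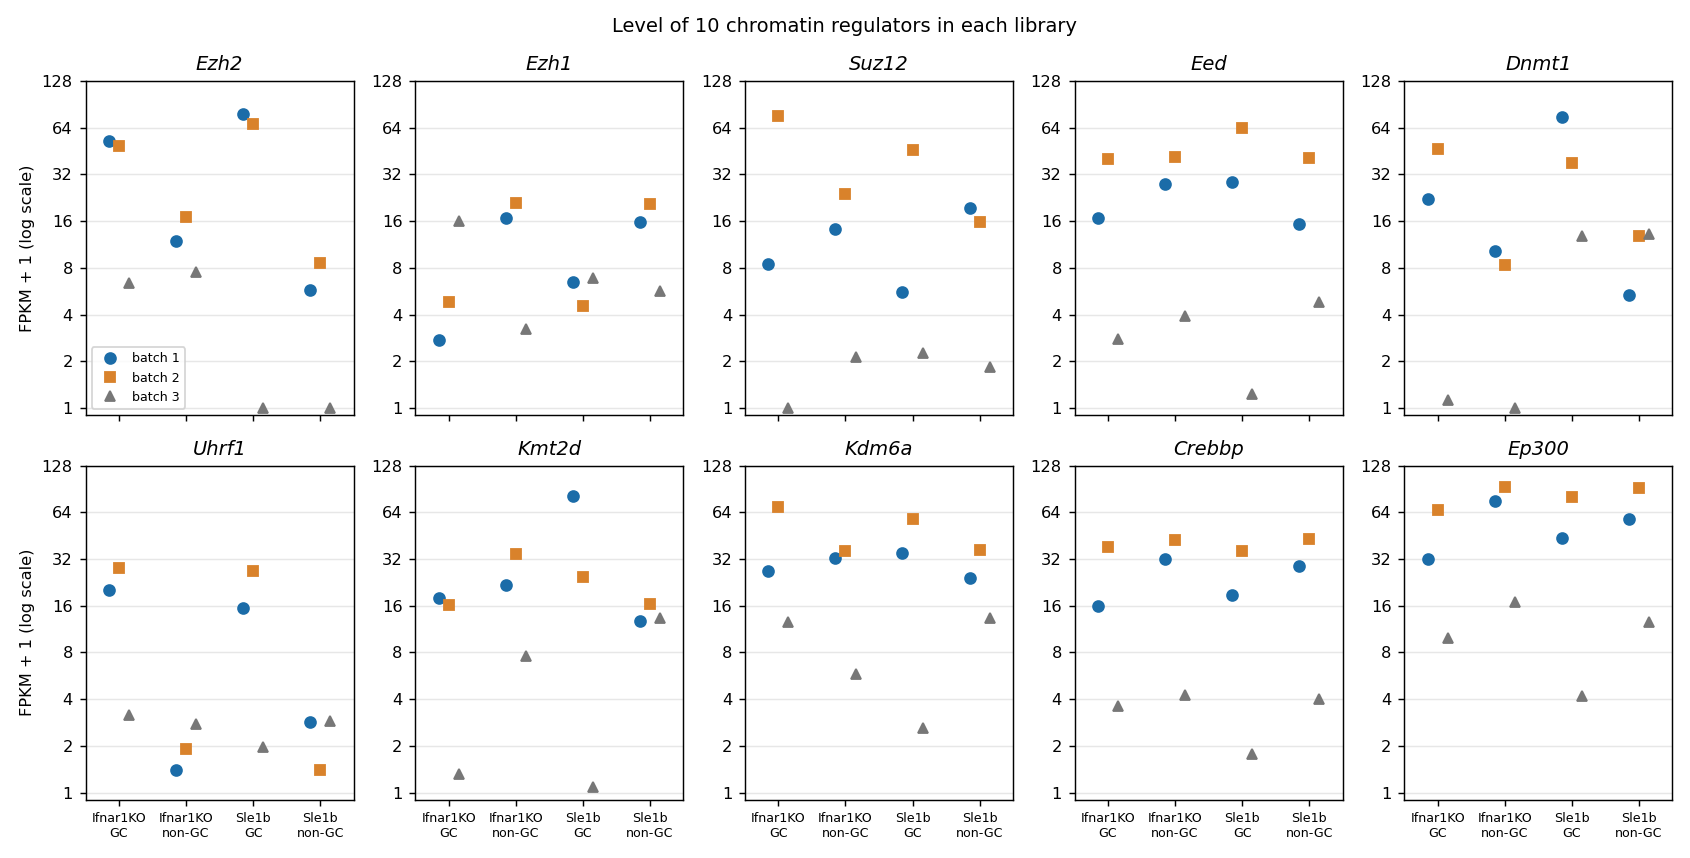
FPKM plus 1 (log scale) of each of the 10 genes in the 12 libraries, by group, with 1 point per library and its batch as colour and shape. Ezh2, Dnmt1 and Uhrf1 sit higher in GC than in non-GC libraries in batches 1 and 2, and most batch 3 values lie below those of the other batches.

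Across all 12 libraries, with batch as a block, none of the 10 genes passed the test (limma on log2(FPKM + 1), two-sided, Benjamini-Hochberg adjusted p under 0.05 over 14600 genes). For the mean GC difference of both genotypes, 4 of the 14600 genes passed (0.0274%), 2 of them higher (0.0137%) and 2 lower (0.0137%), and 3 of the 10, namely Ezh2, Dnmt1 and Uhrf1, had an unadjusted p under 0.05, as had 17.5% of all tested genes. The fit gave Ezh2 a log2 difference of 1.70 (SE 0.60, adjusted p = 0.194) and Ezh1 one of -0.94 (SE 0.59, adjusted p = 0.427). With batches 1 and 2 alone and the filter redone on their 8 libraries, 562 of 12248 genes passed (4.59%), 222 of them higher (1.81%) and 340 lower (2.78%) in GC cells. There 4 of the 10 genes passed: Ezh2 was higher by 2.60 on the log2 scale (SE 0.32, adjusted p = 0.0104), Uhrf1 by 3.60 (SE 0.48, adjusted p = 0.0116) and Dnmt1 by 2.24 (SE 0.44, adjusted p = 0.0315), and Ezh1 fell by 2.06 (SE 0.41, adjusted p = 0.0314). The same 8 libraries with the filter of all 12 called none of them, at adjusted p = 0.0741 for Ezh2, 0.0741 for Uhrf1, 0.082 for Ezh1 and 0.105 for Dnmt1. That fit kept 276 genes listed at 0 in all 8 libraries. Leaving out each of the 8 libraries in turn, Ezh2 and Uhrf1 passed in 6 of 8 fits and Dnmt1 and Ezh1 in 1 of 8. Ezh2 and Uhrf1 missed the threshold without Sle1b GC replicate 1 (adjusted p = 0.0648 for both) and without Sle1b GC replicate 2 (0.0553 and 0.0559), and all 4 genes kept their direction in the 8 fits.

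Within each genotype, 1 gene passed in Ifnar1KO, lower in GC cells (0.00685%), and none in Sle1b (1387 at an unadjusted p under 0.05) across 3 batches. Batches 1 and 2 gave 38 called genes in Ifnar1KO (0.31%), with 0.122% of tested genes higher and 0.188% lower. In Sle1b they gave 7 (0.0572%), with 0.049% higher and 0.00816% lower, and none of the 10 was among either set. Ezh2 differed by 1.82 in Ifnar1KO (SE 0.45, adjusted p = 0.117) and by 3.37 in Sle1b (SE 0.45, adjusted p = 0.0513). The value in Sle1b passed when libraries were joined gene by gene (3.39, adjusted p = 0.0482) and with median-centred libraries (3.45, adjusted p = 0.0475). The median difference over all genes was not 0: it was -0.25 across 3 batches and -0.34 in batches 1 and 2. Centring each library on its median moved the split of calls from mostly lower to mostly higher in batches 1 and 2 (267 higher and 171 lower of 438), and gave 16 higher and 5 lower of 21 across 3 batches. It kept the 4 calls of batches 1 and 2, with Ezh2 at 2.83, Uhrf1 at 3.83, Dnmt1 at 2.47 and Ezh1 at -1.83.

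The balance of the 2 catalytic subunits differed between the cell types in batches 1 and 2. Since FPKM is scaled to length, the level of Ezh2 can be set against that of Ezh1 within a library. The log2 level of Ezh2 minus that of Ezh1 was 4.26, 3.34 and -1.31 in Ifnar1KO GC cells, against -0.50, -0.31 and 1.20 in Ifnar1KO non-GC cells. In Sle1b cells it was 3.60, 3.91 and -2.78 in GC cells, against -1.46, -1.26 and -2.50 in non-GC cells. Ezh2 was thus the more abundant transcript in every GC library of batches 1 and 2 and the less abundant in every non-GC library of these batches, while batch 3 did not follow. The difference of this balance between GC and non-GC cells was 4.76, 3.65 and -2.52 in Ifnar1KO and 5.05, 5.17 and -0.28 in Sle1b. Its mean was 2.64 ± 3.25 (SD, 6 pairs) with 4 of 6 pairs positive. An exact two-sided permutation test that swapped cell type within pairs gave p = 0.125, where the smallest possible is 0.0312. That test takes the 6 pairs as independent, although the 2 pairs of each batch share that batch and had the same sign. It therefore cannot show that the balance was unchanged.

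**Figure D2:**
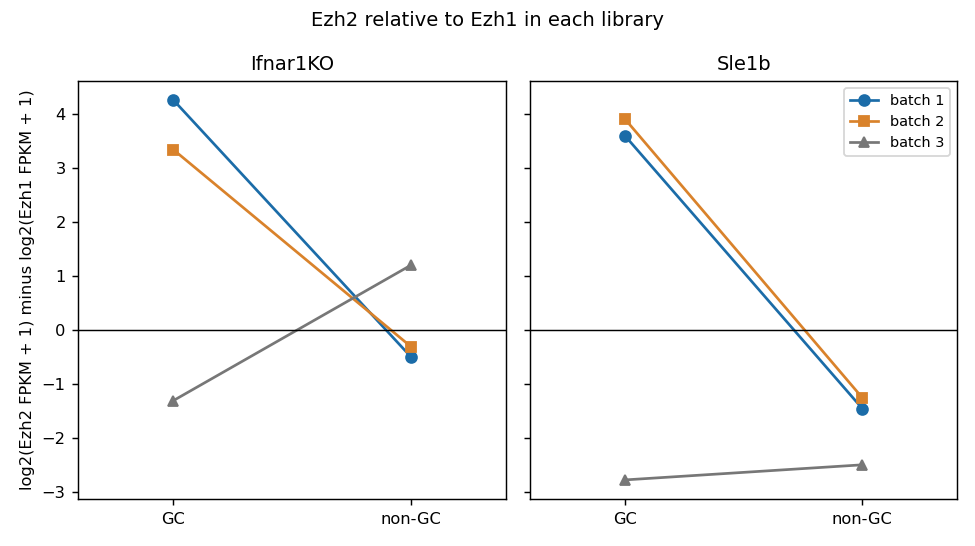
Log2 level of Ezh2 minus log2 level of Ezh1, both as log2(FPKM + 1), in GC and non-GC cells, with a line joining the 2 libraries of 1 genotype and batch. In batches 1 and 2 the GC end lies at 3.34 to 4.26 and the non-GC end below 0, whereas the lines of batch 3 fall elsewhere.

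The core subunits Suz12 and Eed showed no such shift. Suz12 (chr11:79993087-80034123) was 7.44, 74.7 and 0 FPKM in Ifnar1KO GC cells, against 13.3, 23 and 1.12 FPKM in Ifnar1KO non-GC cells. Sle1b cells had 4.61, 45.2 and 1.28 FPKM in GC cells, against 18.4, 14.7 and 0.849 FPKM in non-GC cells. It was lower in GC cells of both genotypes in batch 1 and higher in both in batch 2, so the batches disagreed in direction. Its mean difference was -0.02 across 3 batches (95% interval -1.13 to 1.09) and 0.16 in batches 1 and 2 (-1.18 to 1.51). Eed (chr7:89954656-89981848), which binds methylated lysine 27, is listed as 4 entries at 1 locus that were summed here. It was 15.9, 39.5 and 1.78 FPKM in Ifnar1KO GC cells, against 26.6, 40.6 and 2.93 FPKM in Ifnar1KO non-GC cells, and 27.5, 62.5 and 0.232 FPKM in Sle1b GC cells, against 14.4, 39.9 and 3.81 FPKM in Sle1b non-GC cells. Its mean difference was -0.28 across 3 batches (-1.20 to 0.64) and 0.20 in batches 1 and 2 (-0.49 to 0.88). These intervals leave room for changes of about the size of 1 on the log2 scale. Median centring turned the sign of both genes across 3 batches, to 0.28 for Suz12 and 0.02 for Eed.

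Among 7 further PRC2 partners, Phf19 and Mtf2, Polycomb-like proteins that bring PRC2 to chromatin, were higher in GC cells in batches 1 and 2, beside 1.81% of all tested genes. Phf19 was 14.8, 32.3 and 3.16 FPKM in Ifnar1KO GC cells, against 2.13, 0.748 and 0.308 FPKM in Ifnar1KO non-GC cells. In Sle1b cells it was 35.4, 25.4 and 4.4 FPKM in GC cells, against 2.43, 0.517 and 0.787 FPKM in non-GC cells. The GC library was thus the higher one in all 6 pairs, batch 3 included, as it was for 149 of the 14600 genes (1.02%). The difference of Phf19 was 2.90 across 3 batches (SE 0.47, adjusted p = 0.0577) and 3.53 in batches 1 and 2 (SE 0.49, adjusted p = 0.0122). Mtf2 differed by 1.37 (SE 0.48, adjusted p = 0.191) and 1.79 (SE 0.27, adjusted p = 0.0152). Their relative Phf1 stood at -1.86 in batches 1 and 2 (adjusted p = 0.0679), and Rbbp4, Rbbp7, Aebp2 and Jarid2 lay between -0.69 and -0.02. The median of the 7 was -0.24 across 3 batches and -0.07 in batches 1 and 2, beside -0.25 and -0.34 over all genes. Of 18 tested genes of PRC1, the Polycomb complex that ubiquitinates histone H2A, none passed in either fit (3 and 4 had an unadjusted p under 0.05, as had 17.5% and 24.8% of all genes), and their median was -0.37 in batches 1 and 2. The largest differences there across 3 batches were those of Cbx6, a chromodomain subunit (1.50, SE 0.42, adjusted p = 0.129), and Rnf2, the ubiquitin ligase (-1.29, SE 0.54, adjusted p = 0.244).

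Dnmt1 and Uhrf1 were both higher in GC cells of batches 1 and 2. Dnmt1 (chr9:20907206-20959888) was 21.3, 45.5 and 0.123 FPKM in Ifnar1KO GC cells, against 9.23, 7.37 and 0 FPKM in Ifnar1KO non-GC cells. Sle1b cells held it at 73.9, 36.7 and 11.8 FPKM in GC cells, against 4.34, 11.9 and 12.3 FPKM in non-GC cells. Dnmt1 was higher in the GC library of all 4 pairs of batches 1 and 2, as were 7.27% of all tested genes. In batch 3 both Sle1b libraries lay above both Ifnar1KO libraries. Uhrf1 (chr17:56303321-56323679) was 19.2, 26.9 and 2.18 FPKM in Ifnar1KO GC cells, against 0.404, 0.912 and 1.78 FPKM in Ifnar1KO non-GC cells. Its level was 14.4, 25.6 and 0.98 FPKM in Sle1b GC cells, against 1.87, 0.394 and 1.91 FPKM in Sle1b non-GC cells. Uhrf1 was likewise higher in the GC library of the same 4 pairs. Across 3 batches the differences were 1.51 for Dnmt1 (SE 0.66, adjusted p = 0.264) and 2.34 for Uhrf1 (SE 0.63, adjusted p = 0.118). Of the 10 genes, Uhrf1 had the largest difference in both fits. Among 13 other writers, readers and erasers of DNA methylation none passed in either fit (2 and 2 at an unadjusted p under 0.05), and their median was -0.36 across 3 batches and 0.00 in batches 1 and 2. Mbd4, a glycosylase that repairs deaminated CpG sites, stood at 1.39 in batches 1 and 2 (SE 0.37, adjusted p = 0.0676), and Zbtb33, a methyl-CpG binding factor, at -0.66 (SE 0.44, adjusted p = 0.387).

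Ezh2, Dnmt1 and Uhrf1 are shown with the sequence before and at their start sites because their transcripts were higher together in GC cells of batches 1 and 2, and Ezh1 because it was lower there. The RefSeq promoters (GRCm38.p6, 250 bases before to 50 bases after a start site) are written 5′ to 3′ on the strand of the gene, with matches to 2 E2F-like motifs in capitals.
Ezh2 promoter, chr6:47594981-47595280, minus strand: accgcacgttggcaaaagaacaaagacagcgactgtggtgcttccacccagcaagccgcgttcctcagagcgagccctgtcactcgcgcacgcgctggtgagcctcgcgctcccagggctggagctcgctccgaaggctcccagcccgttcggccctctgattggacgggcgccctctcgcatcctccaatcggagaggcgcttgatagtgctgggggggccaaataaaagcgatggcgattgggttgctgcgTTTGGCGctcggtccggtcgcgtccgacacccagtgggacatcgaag
Dnmt1 promoter 1, chr9:20952574-20952873, minus strand: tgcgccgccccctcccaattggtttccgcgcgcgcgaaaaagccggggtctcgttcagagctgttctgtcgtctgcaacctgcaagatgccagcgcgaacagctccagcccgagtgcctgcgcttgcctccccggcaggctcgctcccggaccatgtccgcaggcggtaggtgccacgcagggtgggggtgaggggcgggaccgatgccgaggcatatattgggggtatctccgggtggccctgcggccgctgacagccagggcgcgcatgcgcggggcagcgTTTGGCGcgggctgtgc
Uhrf1 promoter 1, chr17:56303087-56303386, plus strand: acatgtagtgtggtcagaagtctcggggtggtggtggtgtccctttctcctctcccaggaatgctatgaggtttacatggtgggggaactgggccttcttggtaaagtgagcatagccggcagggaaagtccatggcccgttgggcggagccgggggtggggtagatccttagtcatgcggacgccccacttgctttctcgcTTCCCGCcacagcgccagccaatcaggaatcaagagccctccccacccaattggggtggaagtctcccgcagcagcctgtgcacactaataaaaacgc
Ezh1 promoter, chr11:101226414-101226713, minus strand: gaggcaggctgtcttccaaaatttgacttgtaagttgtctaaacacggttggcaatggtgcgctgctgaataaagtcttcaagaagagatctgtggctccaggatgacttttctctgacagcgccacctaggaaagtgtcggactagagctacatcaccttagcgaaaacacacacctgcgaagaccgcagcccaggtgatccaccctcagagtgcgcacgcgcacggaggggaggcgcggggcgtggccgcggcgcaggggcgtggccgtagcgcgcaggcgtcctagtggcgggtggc
The E2F-like motifs searched were TTCCCGC and TTTGGCG, on both strands. TTTGGCG began at base 4 after the start site in Ezh2 and at base 34 after it in Dnmt1 promoter 1, and TTCCCGC began at -48 in Uhrf1 promoter 1. Of the 10 genes, 4 held a match, the fourth being Suz12 with TTCCCGC at -218, and 6 did not. Of all 32851 RefSeq promoters of this length, 5.99% held either motif, and 6.83% of 27025 genes had a promoter with one. The NF-Y-like motif CCAAT, searched on both strands, was found in promoters of 5 of the 10 genes (Ezh2, Suz12, Eed, Dnmt1 and Uhrf1) and in 37.4% of all promoters. That share counts single promoters, whereas a gene was counted if any of its promoters held the motif. The shown Ezh2, Dnmt1 and Uhrf1 promoters each held 3 CCAAT matches and the Ezh1 promoter none. The matches at -236 and -233 in Dnmt1 promoter 1 overlap on opposite strands, as do those at -2 and 2 in Uhrf1 promoter 1. TTTGAA, which resembles the cell cycle homology element, was found in Suz12, Eed and Dnmt1 promoter 3 and in 17.9% of all promoters. Dnmt1 has 3 and Uhrf1 has 2 promoters in this set, and which of them the cells used was not measured. Dnmt1 promoters 2 and 3 and Uhrf1 promoter 2, which are not shown, held no E2F-like match, and Dnmt1 promoter 2 held no CCAAT. A match describes the letters only and is not evidence of binding.

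Among the enhancer regulators, Kmt2d and Kdm6a differed in direction between batches or genotypes. Kmt2d (chr15:98831669-98871204) was 16.9, 15.1 and 0.309 FPKM in Ifnar1KO GC cells, against 20.8, 33.4 and 6.61 FPKM in Ifnar1KO non-GC cells. In Sle1b cells it was 81, 23.4 and 0.0876 FPKM in GC cells, against 11.7, 15.4 and 12.4 FPKM in non-GC cells. GC cells were the lower ones in all 3 Ifnar1KO pairs, whereas in Sle1b they were the higher ones in batches 1 and 2 and the lower one in batch 3. Kdm6a (chrX:18162575-18279936), which removes methyl groups from lysine 27, was 25.6, 68.1 and 11.5 FPKM in Ifnar1KO GC cells, against 31.3, 35.1 and 4.81 FPKM in Ifnar1KO non-GC cells. In Sle1b cells it was 34.1, 56.7 and 1.62 FPKM in GC cells, against 23.1, 35.3 and 12.4 FPKM in non-GC cells. Its mean difference was 0.11 across 3 batches (95% interval -0.87 to 1.08) and 0.47 in batches 1 and 2 (-0.24 to 1.18). For Kmt2d it was -0.71 (-2.12 to 0.70) and 0.47 (-0.51 to 1.45), so the sign turned with batch 3.

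Crebbp and Ep300 were lower in the GC library of each of the 6 pairs that shared genotype and batch, as were 850 of the 14600 genes (5.82%). Crebbp (chr16:4081328-4213407) was 15, 37.4 and 2.64 FPKM in Ifnar1KO GC cells, against 30.8, 41.4 and 3.25 FPKM in Ifnar1KO non-GC cells, and 17.8, 35.2 and 0.77 FPKM in Sle1b GC cells, against 27.9, 42.3 and 3.03 FPKM in Sle1b non-GC cells. Ep300 (chr15:81585351-81652072) had the highest mean level of the 10 genes in the non-GC groups. It was 31.1, 64.8 and 8.93 FPKM in Ifnar1KO GC cells, against 74.3, 91.5 and 16 FPKM in Ifnar1KO non-GC cells, and 42.5, 79.7 and 3.17 FPKM in Sle1b GC cells, against 57, 90.5 and 11.5 FPKM in Sle1b non-GC cells. The groups overlapped across batches, since the GC level of batch 2 exceeded the non-GC level of batch 1 for Crebbp in both genotypes. That overlap sets batches normalized apart against each other, so it does not bear on the differences within a batch. Neither gene passed: Crebbp differed by -0.57 across 3 batches (SE 0.35, adjusted p = 0.416) and -0.50 in batches 1 and 2 (SE 0.30, adjusted p = 0.343), and Ep300 by -0.78 (SE 0.38, adjusted p = 0.302) and -0.58 (SE 0.27, adjusted p = 0.231). Median centring left -0.27 and -0.48 across 3 batches. With values centred within batches, the paralogues had a correlation of 0.95 over the 12 libraries, which share batches and cell types.

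**Figure D3:**
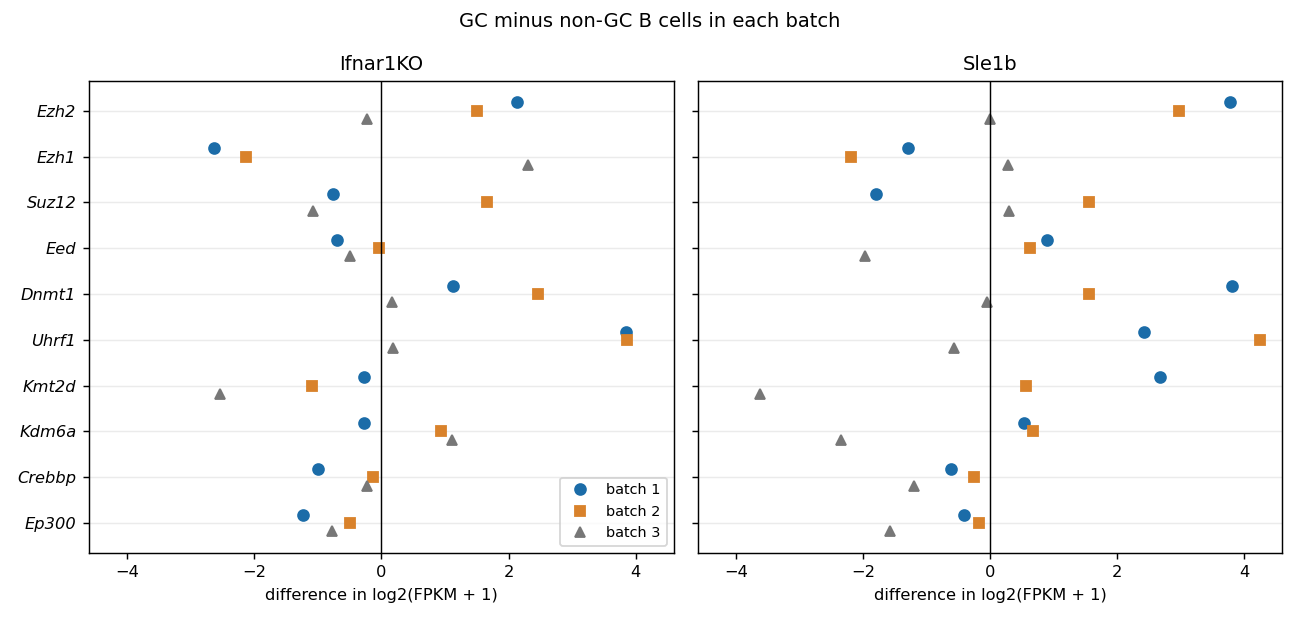
Difference in log2(FPKM + 1) between GC and non-GC cells of the same genotype and batch for the 10 genes, Ifnar1KO left and Sle1b right, with 1 point per batch. Ezh2, Dnmt1 and Uhrf1 lie above 0 and Ezh1 below 0 in batches 1 and 2 of both genotypes, and Crebbp and Ep300 lie below 0 in all 6 pairs.

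Of the 10 genes, 3 were higher in GC cells in all 4 pairs of batches 1 and 2 (Ezh2, Dnmt1 and Uhrf1), as were 7.27% of all tested genes. Another 3 were lower in all 4 pairs (Ezh1, Crebbp and Ep300), as were 18.1% of all tested genes.

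Of 82 genes in 6 lists around Kmt2d, Kdm6a, Crebbp and Ep300, 4 passed in batches 1 and 2 (4.88%), beside 4.59% of all tested genes, so their share was near that of all genes. Of 14 genes of the KMT2 and COMPASS complexes, which methylate lysine 4 of histone H3, 1 passed in batches 1 and 2: Setd1a, a catalytic subunit, was higher by 1.49 (SE 0.34, adjusted p = 0.0477). The widest differences of that list across 3 batches were Dpy30, a shared subunit, at -2.26 (SE 0.72, adjusted p = 0.157) and Kmt2b, a catalytic subunit, at 1.36 (SE 0.56, adjusted p = 0.238). Of 11 histone demethylases, Kdm5b, which acts on lysine 4, was the 1 gene to pass in batches 1 and 2, at -1.77 (SE 0.41, adjusted p = 0.0488), and Kdm4c was the widest across 3 batches at -1.20 (SE 0.49, adjusted p = 0.235). None of 11 acetyltransferases and acetyl-lysine readers passed in either fit (1 and 2 at an unadjusted p under 0.05), with Kat8 across 3 batches at -1.22 (SE 0.47, adjusted p = 0.219) and Kat6a at -0.63 (SE 0.35, adjusted p = 0.364). None of 19 deacetylases and corepressors passed either (2 and 2 at an unadjusted p under 0.05), with Hdac5 across 3 batches at -1.43 (SE 0.46, adjusted p = 0.157) and Sirt1 at -1.11 (SE 0.50, adjusted p = 0.277). Of 14 SWI/SNF remodelling genes, the ATPase gene Smarca4 was higher in batches 1 and 2 (1.62, SE 0.34, adjusted p = 0.0378), while the other ATPase gene Smarca2 and the subunit gene Smarce1 were the widest across 3 batches at -1.70 (SE 0.58, adjusted p = 0.183) and 1.47 (SE 0.57, adjusted p = 0.22). Of 13 other histone methyltransferases, Whsc1, which methylates lysine 36 of histone H3, was higher in batches 1 and 2 (1.98, SE 0.37, adjusted p = 0.0262), and Ehmt1, which methylates lysine 9, stood at -0.97 across 3 batches (SE 0.57, adjusted p = 0.396). The medians of these 6 lists in batches 1 and 2 ran from -0.23 to 0.17, beside -0.34 over all genes.

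Proliferation transcripts differed in the same libraries of batches 1 and 2 as Ezh2, Dnmt1 and Uhrf1. Of 18 genes of mitosis, 13 were higher in GC cells of batches 1 and 2 and none lower, with a median of 2.64, beside 1.81% higher, 2.78% lower and a median of -0.34 over all tested genes. Mki67, a marker of dividing cells, differed by 5.82 (SE 0.32, adjusted p = 0.000338) and Top2a by 4.15 (SE 0.33, adjusted p = 0.00238). Mki67 and the spindle gene Tpx2 were 2 of the 4 genes called across 3 batches, at 4.56 (SE 0.62) and 3.21 (SE 0.45), each with adjusted p = 0.0314. The median of the mitosis list in batch 3 was 0.00 in both genotypes, yet these 2 genes were higher in GC cells there. Mki67 was 5.86 against 0.283 FPKM in Ifnar1KO and 5.53 against 1.11 FPKM in Sle1b. Tpx2 was 2.21 FPKM against a listed 0 in Ifnar1KO and 29.5 against 0.121 FPKM in Sle1b. Of 18 genes of DNA replication and chromatin assembly, 7 were higher and none lower in batches 1 and 2, with a median of 1.44. These were Lig1, Mcm5, Cdc6, Gins1, Rrm2, Tyms and Chaf1a, and the change was 3.51 for the replication licensing gene Cdc6 (SE 0.52, adjusted p = 0.0152) and 3.10 for Gins1 (SE 0.56, adjusted p = 0.0245). The 8 resting and follicular B cell markers summed to 1520 to 2810 FPKM in the GC cells of batches 1 and 2, against 3050 to 5030 FPKM in non-GC cells, and 5 of the 8 were lower with none higher. Markers of other cells in those libraries summed to 28.6 to 69.9 FPKM in GC cells, against 23.8 to 28 FPKM in non-GC cells for 5 plasma cell genes, and to 8.04 to 34.6 FPKM, against 3.27 to 6.64 FPKM for 6 myeloid genes. Most of the gap of the plasma cell sum was Jchain, at 13.9, 21.1, 26.8 and 48.3 FPKM in GC cells, against 0.191 to 5.62 FPKM in non-GC cells, while Xbp1 was lower in GC cells in 3 of 4 pairs. The sums were 9.48 to 27.3 FPKM in GC cells, against 9.16 to 25 FPKM in non-GC cells for 7 T cell genes. They were 0 to 9.9 FPKM, against 2.33 to 11.9 FPKM for 4 NK cell genes, and 0 to 23.9 FPKM, against 1.86 to 7.73 FPKM for 4 erythroid genes. Single genes made up most of the highest sums: Lyz2 (28.2 FPKM) and Alas2 (13.5 FPKM) in Sle1b GC cells of batch 1, and Lck (26.1 FPKM) in those of batch 2. Lyz2 was listed at 0 in Sle1b GC cells of batch 2. Itgam was 3.02, 7.61, 3.61 and 7.27 FPKM in GC cells, against 0.832 to 2.55 FPKM in non-GC cells. The part of proliferation and of cell composition in the differences of the 10 genes was not tested.

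Of 12 genes described as repressed by Ezh2 or activated by Kmt2d or Crebbp in GC B cells, 9 were tested. In batches 1 and 2, 2 were lower in GC cells and none higher, with a median of -0.68, beside 2.78% lower, 1.81% higher and a median of -0.34 over all tested genes. The cell cycle inhibitor Cdkn1b was lower by a difference of -2.22 (SE 0.46, adjusted p = 0.0367) and the MHC class II gene H2-Aa by one of -1.73 (SE 0.29, adjusted p = 0.0209). The MHC class II genes H2-Ab1 and Cd74 stood at -1.17 and -1.20 (adjusted p = 0.0538 and 0.0541). Prdm1, the plasma cell regulator that Ezh2 is described to repress, stood at 1.80 (SE 0.55, adjusted p = 0.0931), and of the plasma cell markers Jchain was higher by 3.00 (SE 0.57, adjusted p = 0.0283) while Sdc1 stood at -0.84 and Xbp1 at -0.63 (adjusted p = 0.335 and 0.347). MHC class II genes share sequence with relatives, so their values are uncertain.

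**Figure D4:**
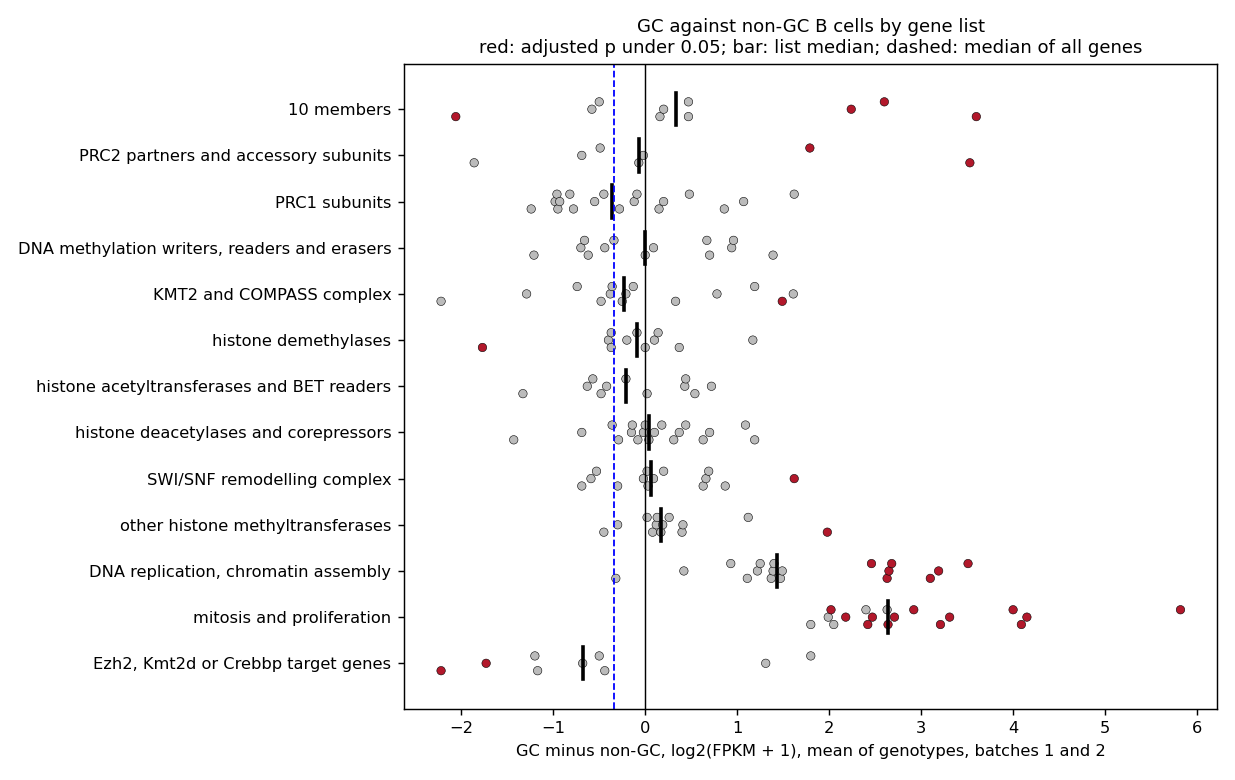
GC minus non-GC difference in log2(FPKM + 1), mean of genotypes in batches 1 and 2, for each tested gene of the 10 regulators and of 12 lists. Red points passed an adjusted p of 0.05, bars are list medians and the dashed line is the median of all genes at -0.34; mitosis (13 of 18 red) and replication (7 of 18 red) stand to the right.

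Between genotypes, none of the 10 genes passed in GC cells, in non-GC cells or in the interaction of genotype and cell type, across 3 batches or in batches 1 and 2 (limma). At an unadjusted p under 0.05 there were 0, 0 and 0 of the 10 across 3 batches and 1, 1 and 2 in batches 1 and 2, beside 9.45%, 1.52% and 5.37% of all genes there. No gene of the 14600 passed in these 3 comparisons across 3 batches (0% called each), where 959, 243 and 546 genes had an unadjusted p under 0.05. With batches 1 and 2 alone, 1 gene passed in GC cells (0.00816%), higher in Ifnar1KO. Ezh2 was higher in non-GC cells labelled Ifnar1KO than in Sle1b non-GC cells in all 3 batches, by 1.05, 0.99 and 2.91 on the log2 scale, the last against a level listed at 0. The fitted difference was 1.65 (SE 0.85, adjusted p = 1, 95% interval -0.20 to 3.50) and 1.02 in batches 1 and 2 (SE 0.45, adjusted p = 1). In GC cells Ezh2 differed by -0.59 and -0.48 in batches 1 and 2 and by 2.69 in batch 3, again against a listed 0, and the fit gave 0.54 (95% interval -1.31 to 2.39). The interaction for Ezh2 was -1.55 in batches 1 and 2 (95% interval -2.99 to -0.12, unadjusted p = 0.0372, adjusted p = 0.917). For Kmt2d it was -2.32 (95% interval -4.28 to -0.35, unadjusted p = 0.0259, adjusted p = 0.902), and across 3 batches it was -1.18 (adjusted p = 0.991). In batches 1 and 2 the Kmt2d level of the library labelled Ifnar1KO differed by -2.20 and -0.59 in GC cells and by 0.77 and 1.07 in non-GC cells. Dnmt1 in GC cells showed -1.75, 0.30 and -3.51 in the 3 batches and a fitted -1.65 (SE 0.93, adjusted p = 0.776). The 95% intervals of the 10 genes across 3 batches were wide, for example -1.80 to 1.84 for Ezh1 and -1.55 to 2.31 for Uhrf1 in GC cells, so differences of 1 on the log2 scale would not have been detectable. The direction of these comparisons rests on the knockout label, which the Ifnar1 transcript did not follow in batches 1 and 2.

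**Figure D5:**
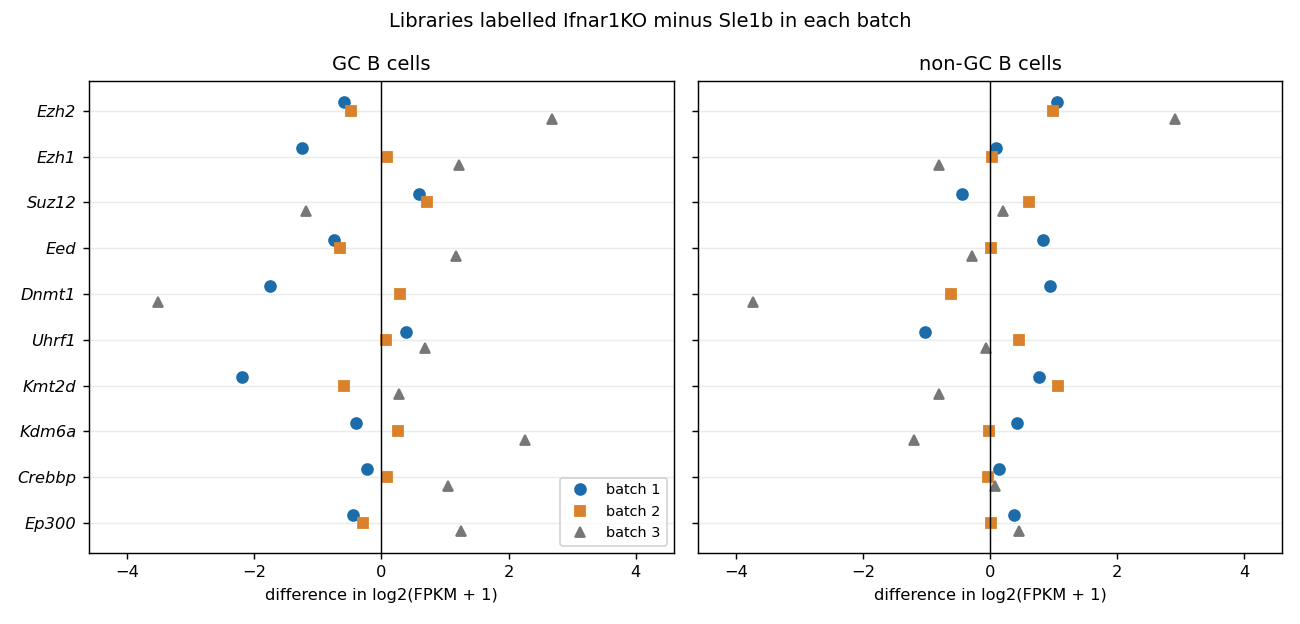
Difference in log2(FPKM + 1) between libraries labelled Ifnar1KO and Sle1b of the same batch for the 10 genes, GC cells left and non-GC cells right, with 1 point per batch. The widest values, -3.51 in GC and -3.73 in non-GC cells for Dnmt1, belong to batch 3.

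The genes whose levels followed Ezh2 most closely over the 12 libraries, with values centred within batches, were Kif4 (r = 0.94), a mitotic kinesin gene, Lpin2 (0.93), a lipid phosphatase gene, the histone H2A gene Hist2h2aa1 (0.93), Enam (0.92), which encodes an enamel protein, and Mbd2 (0.91), a methyl-CpG reader. Enam stayed at or below 2.49 FPKM in every library. Mbd2 was 56.4, 94.2 and 2.23 FPKM in Ifnar1KO GC cells, against 39.1, 57.9 and 3.28 FPKM in Ifnar1KO non-GC cells, and 86.5, 116 and 2.02 FPKM in Sle1b GC cells, against 31.8, 48.8 and 1.41 FPKM in Sle1b non-GC cells. Among the 10 regulators Uhrf1 was the most like Ezh2 (r = 0.75, rank 124 of the tested genes) and Ezh1 the least (-0.60). In the 8 libraries of batches 1 and 2 these values were 0.89 and -0.86, and that of Dnmt1 was 0.91, against 0.09 over all 12. These correlations describe libraries that share batches, cell types and joined tables, and histone genes share sequence with relatives.

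The authors' deposited tables each compare 1 library with 1 other and gave a test for the 10 genes in 187 of 221 entries, of which 5 were significant, all in batch 3. Of these, 4 entries of the authors' deposited tables were Ezh2, each between a library labelled Ifnar1KO and a Sle1b library listed at 0, with q-values of 0.02007 to 0.04071. The other was Dnmt1 in the authors' deposited table of non-GC cells, at 0 FPKM in Ifnar1KO against 10.72 FPKM in Sle1b (q = 0.006762). The authors' call was made for 1.13%, 0.879% and 11.3% of the named loci they tested in batches 1, 2 and 3. None of the 141 entries of the 10 genes tested in batches 1 and 2 was significant there, including those that set GC against non-GC cells.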

How the data were processed

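RNA was sequenced from 12 libraries. The labels' protocols name SMARTer Ultra Low Input cDNA and Nextera XT and do not say that strand was kept. The build is GRCm38 (mm10), and the tools named are TopHat2 2.0.9 with Bowtie2 2.1.0, CASAVA, Cuffdiff and Cufflinks 2.2.1, per the submitters' processing notes. The authors deposited tables of 2 libraries each, with FPKM per locus as normalized by Cuffdiff and a p-value and q-value. The 17 tables used hold 506504 loci, of which 45241 are named and 461263 are not. The direct batch 1 table of Sle1b GC and non-GC cells was not used here. Each library's values were proportional between its tables (99.74% to 100% of loci within 0.1%), so the tables of a batch were joined with 1 scale per library by least squares. FPKM levels of different batches thus rest on tables normalized apart from each other. Loci sharing a symbol were added up, and 9 failed items were left out. For low unnamed loci, 1 read on 1 kb was worth 0.121 to 0.408 FPKM. The bases taken off the locus length were chosen per library to give the highest share of whole reads, which was 100% within 0.1. Named genes were not part of that estimate. Precision at low FPKM is limited by counting. No 2 libraries were alike beyond a correlation of 0.927.

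Tests covered genes at 1 FPKM or more in 3 or more libraries and were run with limma 3.58.1 (R 4.3.3) on log2(FPKM + 1), which understates the change of low genes, with a trend, batch as block, 6 residual degrees of freedom and Benjamini-Hochberg adjustment at 0.05. The scripts were tested on simulated data. Batch numbers pair the libraries because the deposited tables were made within batches. Deviations from group means correlated at 0.29, 0.40 and 0.52 or more within batches 1, 2 and 3, and at most at 0.45, 0.45 and -0.27 with other batches. For batches 1 and 2 the lowest value within the batch lay below the highest with another batch, so these values do not show the pairing there. The deviations of the 3 libraries of a group also sum to 0, so they are not independent. The 10 genes, the 12 pathway lists and the 8 marker lists were chosen with earlier results of these data known. Named genes are the 10, list members that passed, the 2 widest per list for the mean GC difference, and the 5 most correlated with Ezh2. Joining gene by gene, median centring of batches 1 and 2 and leaving out each of their 8 libraries were alternatives chosen after seeing the data. The other PRC2 partners, Prdm1, Cd74 and single marker genes such as Jchain, Xbp1, Sdc1, Cd3d and Lck were named after their values were seen. Promoters are from RefSeq (GRCm38.p6), matched by symbol for all 10 genes. 1 marker gene is not reported here, and the sums leave it out.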

Additional observations from a re-analysis of the deposited data

How the results depend on the processing

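Over 26 alternatives, 6 of the 10 genes kept the sign of their mean GC difference in every fit (Ezh2, Ezh1, Dnmt1, Uhrf1, Crebbp and Ep300), and Suz12 turned in 14 of 26, Eed in 6, Kdm6a in 6 and Kmt2d in 4, without a call. Between genotypes 1 gene kept its sign in GC cells and 2 in non-GC cells. Genes called for the mean GC difference numbered 4, and with no replicate block 0 (Ezh2 at 1.70, adjusted p = 0.999). They numbered 1 with a pseudocount of 0.1, 9 with 5, 1 with no filter, 17 with at least 5 FPKM in at least 6 libraries and 21 with median-centred libraries. They numbered 0 without batch 1, 0 without batch 2 and 1 without batch 3. With batches 1 and 2 and the filter redone they numbered 562, with the join per gene as well 621, and with centring as well 438, each with 4 of the 10 genes. Leaving out 1 library gave 1 to 10 with 12 libraries. Within batches 1 and 2 it gave 4 and 12 without Sle1b GC replicates 1 and 2, 59 and 68 without Sle1b non-GC replicates 1 and 2, 66 and 58 without those of Ifnar1KO non-GC and 508 and 492 without those of Ifnar1KO GC, with 0 to 3 of the 10 genes. In Ifnar1KO 1 gene was called, and 0 with no replicate block and without batch 1, 2 or 3, 2 under the filter of 5 FPKM, 3 with the join per gene, and 38, 40 and 13 in batches 1 and 2 with the filter redone, joined per gene and centred. In Sle1b none was called, 1 under the filter of 5 FPKM, and 7, 13 and 15 in those 3 fits, with 1 of the 10 genes (Ezh2) in the last 2. Leaving out 1 library gave 0 to 2 and 0 to 1. Between genotypes in GC cells 0 became 1 in each of those 3 fits and 0 to 1 without 1 library, and the interaction gave 0 to 1. With the filter of all 12 libraries, batches 1 and 2 kept 276 genes listed at 0 in all 8 and had 1.63 prior degrees of freedom, against 5.72 with the filter redone. The cause of these changes was not tested. Where an arm kept 1 library, it was assumed to vary like the others. Values listed at 0, most of them in batch 3, limit every comparison, although 1 read on 1 kb was worth 0.16 to 0.296 FPKM there, against 0.121 to 0.408 FPKM in batches 1 and 2.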
